A study of Mus musculus with 15 samples.

Results

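The 5 genes described here carry the creatine system of the brain, from synthesis (Gatm, Gamt) and uptake (Slc6a8) to the creatine kinases that use it (Ckb, Ckmt1). They were taken by symbol from the 26595 genes of the deposited table, and each symbol matched 1 row. Expression was measured in cerebral cortex and in striatum of male C57Bl/6 mice at 5 months of age. WT mice were compared with KO mice, which are Slc1a4 -/- and so lack the neutral amino acid transporter ASCT1. The libraries comprised 4 of WT cortex, 4 of KO cortex, 4 of WT striatum and 3 of KO striatum. The labels give neither the deleted part of Slc1a4 nor whether each library came from its own animal, so the tests weigh differences against the spread among libraries, which may be technical.

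Creatine stores the high-energy phosphate of ATP as phosphocreatine and returns it where ATP is spent. It is made in a pair of steps. GATM (AGAT), in mitochondria, moves the amidino group of arginine to glycine to give guanidinoacetate, and GAMT then methylates guanidinoacetate with S-adenosylmethionine. SLC6A8 carries creatine into cells, including across the blood-brain barrier. CKB is the cytosolic brain creatine kinase and CKMT1 the ubiquitous mitochondrial one. In the brain, inherited loss of GATM, GAMT or SLC6A8 causes creatine deficiency, and ASCT1 carries serine, from which cells make the glycine that GATM uses.

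Libraries held 26791109 to 30276815 counted reads in cortex and 22990233 to 25697792 in striatum. Slc1a4 stood at 1494 to 1797 normalized counts in WT cortex and 249 to 308 in KO cortex. In striatum it stood at 1237 to 1726 in WT and 158 to 344 in KO, so every KO library lay below every WT library. All 10 striatal projection neuron markers were called higher in WT striatum than in WT cortex (limma), and 9 of 10 cortical excitatory neuron markers were called lower, so the tissues matched their labels. The striatum libraries were uneven. Summed choroid plexus markers reached 224176 normalized counts in WT replicate 5 and 152662 in KO replicate 4, against 9849 to 19939 in the other striatum libraries. Summed striatal projection neuron markers were lowest in KO replicate 4 (41708) and WT replicate 8 (82930), against 92307 to 185530 in the others. Summed cortical excitatory neuron markers were 3876 to 8995 in WT striatum and 7764 to 15907 in KO striatum. The part of these differences in the results was not tested, and counts that move without those libraries are given both ways.

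Upstream sequence is shown for the 3 members that were called higher in striatum than in cortex of WT mice. Sequences are from RefSeq (GRCm38.p6), whose table matched 4 of the 5 members, all but Slc6a8. They run 5′ to 3′ on the strand of the gene, up to the base before its start. Capitals mark matches, on either strand, to the motifs TATAAA and CCAAT, to GGGCGG, and to CACGTG. The last 26 bases before the RefSeq start of Gatm are left out because GENCODE places them in its first exon.
Gatm (chr2:122611304-122611527, minus strand): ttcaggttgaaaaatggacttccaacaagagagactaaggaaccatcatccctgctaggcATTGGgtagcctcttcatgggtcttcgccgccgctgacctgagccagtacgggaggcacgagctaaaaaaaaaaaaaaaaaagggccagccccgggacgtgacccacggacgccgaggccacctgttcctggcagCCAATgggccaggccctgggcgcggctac
Gamt (chr10:80261013-80261262, minus strand): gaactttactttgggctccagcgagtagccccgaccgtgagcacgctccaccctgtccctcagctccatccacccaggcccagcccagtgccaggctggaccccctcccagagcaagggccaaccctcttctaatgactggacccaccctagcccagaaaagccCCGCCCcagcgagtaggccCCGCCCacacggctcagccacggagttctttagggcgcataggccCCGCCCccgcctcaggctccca
Ckb (chr12:111672339-111672588, minus strand): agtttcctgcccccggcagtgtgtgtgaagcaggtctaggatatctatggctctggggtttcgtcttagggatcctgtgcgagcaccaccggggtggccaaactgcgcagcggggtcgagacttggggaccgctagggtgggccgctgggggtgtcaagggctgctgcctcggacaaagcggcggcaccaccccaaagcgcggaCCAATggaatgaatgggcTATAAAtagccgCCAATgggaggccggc
The 3 upstream regions held different matches. The Ckb region held TATAAA at -28 to -23 from the RefSeq start and CCAAT at -46 to -42 and at -16 to -12. Gatm had CCAAT matches at -190 to -186 and -55 to -51 and no TATAAA. Gamt had GGGCGG matches at -86 to -81, -67 to -62 and -22 to -17, read on the opposite strand, and no TATAAA or CCAAT. None of the 3 held CACGTG. Among the 250 bases upstream of 32851 RefSeq starts, 12.4% held TATAAA, 33.8% CCAAT, 32.7% GGGCGG and 6.02% CACGTG. The G and C content of these 250 bases was 59.2% for Gatm, 66.8% for Gamt and 62.8% for Ckb, above the median of 52.4% for all of them. These are matches of letters in a short window and show no binding.

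Set against each other per kilobase of the principal transcript, the members spanned about 2 orders of magnitude. In WT cortex Ckb had the highest level (18696 ± 527 normalized counts per kb, SD, n = 4), followed by Ckmt1 (2567 ± 102), Gatm (1316 ± 207), Slc6a8 (940 ± 54.7) and Gamt (168 ± 20.1). No neighbours in that order overlapped in WT cortex, although Gatm (1011 to 1470 per kb) and Slc6a8 (882 to 1006) nearly met. In WT striatum the order of Gatm and Ckmt1 was exchanged, with Gatm at 3194 ± 224 per kb (2996 to 3497) and Ckmt1 at 2477 ± 346 (2179 to 2956, SD, n = 4 each). In KO striatum these 2 genes overlapped, at 2847 ± 944 and 2378 ± 400 per kb (SD, n = 3 each). Counted reads per kilobase of all exons placed Ckb between rank 24 and rank 47 of 16929 genes in the 15 libraries. Gamt stood between rank 4598 and rank 9224, so the enzymes of the 2 synthesis steps differed widely in transcript level. Per kilobase, the level of Gatm was 7.90 ± 1.52 times that of Gamt in WT cortex and 9.04 ± 1.28 times in WT striatum (SD, n = 4 each). In KO the ratio was 9.70 ± 0.870 in cortex (SD, n = 4) and 11.7 ± 1.51 in striatum (SD, n = 3).

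**Figure D1:**
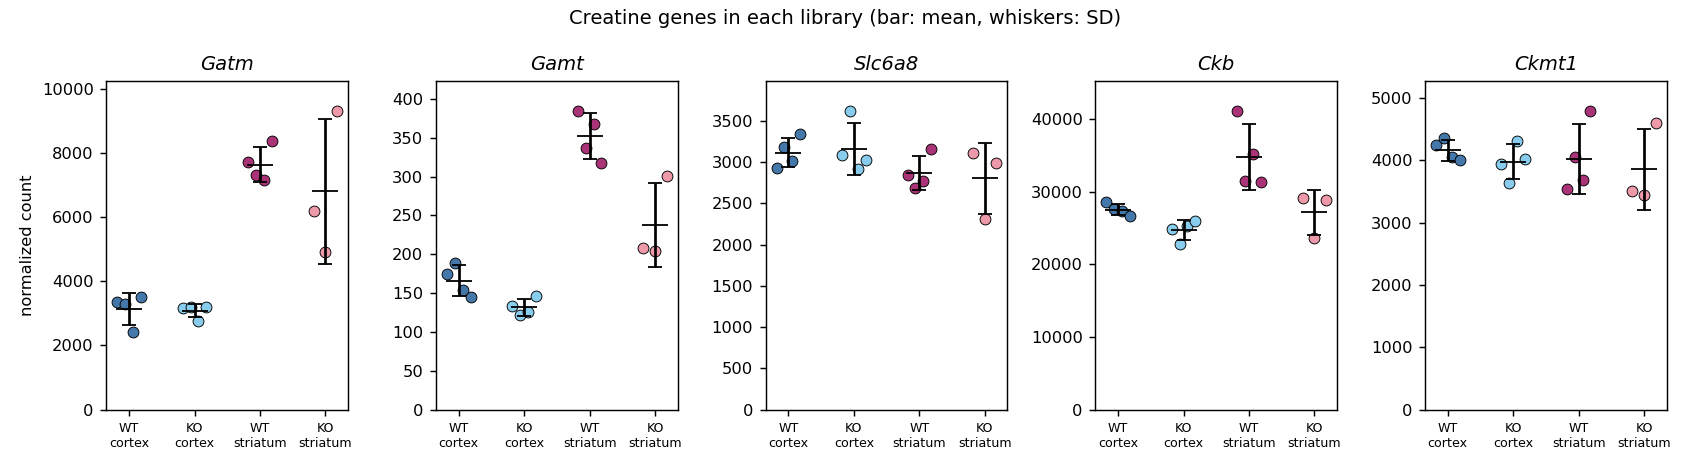
Normalized counts of the 5 genes (vertical axes from 0, a separate scale per gene) in each library, by tissue and genotype; points are libraries, horizontal bars means and whiskers SD. Gatm and Gamt stand higher in every striatum library than in every cortex library, while Slc6a8 and Ckmt1 overlap in all 4 groups.

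The clearest difference was between tissues, and it concerned both enzymes of synthesis. Gatm and Gamt were each about 2-fold higher in striatum than in cortex, in WT and in KO. Ckb was higher in WT striatum by a smaller amount, and the creatine transporter and the mitochondrial kinase were not called in either genotype. In WT 3 of 5 members were called, all higher in striatum, where limma called 50.5% of the 17030 genes tested (24.9% higher and 25.7% lower). In KO 2 of 5 were called, both higher, against 37.9% of all genes (18.4% higher and 19.5% lower). These shares are large, so a call between tissues is common among all genes and the size of each difference says more than the count. The median log2 difference over all genes tested was 0.0058 in WT and 0.0024 in KO, where genes above and below 0 nearly balanced. Over the 5 members the median was 0.33 and 0.13, the values of Ckb. These signed medians do not show how unusual the size of a difference is. In 47.3% of all genes the WT tissues did not overlap in either direction, and in 41.5% the KO tissues did not.

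Gatm (ENSMUSG00000027199, chromosome 2, 122594467 to 122611303, minus strand), which catalyses the committed step of the pathway, had normalized counts of 3364, 3289, 2415 and 3511 in WT cortex replicates 5 to 8. The WT striatum libraries held 7702, 7304, 7158 and 8355. Every WT striatum library lay above every WT cortex library, and the lowest cortex value was that of replicate 7. In KO cortex replicates 1 to 4 the counts were 3154, 3212, 2770 and 3191. In KO striatum replicates 2 to 4 they were 6176, 4926 and 9303, again all above cortex but widely spread. The log2 difference was 1.29 in WT (SE 0.16, limma adjusted p = 1.0e-05), or 2.45-fold with a 95% interval of 1.94 to 3.08. In KO it was 1.09 (SE 0.17, limma adjusted p = 0.00017), or 2.13-fold (1.66 to 2.74).

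Gamt (ENSMUSG00000020150, chromosome 10, 80258151 to 80261012, minus strand), the methyltransferase that completes creatine, was the least abundant member. It had 175, 189, 154 and 145 normalized counts in WT cortex replicates 5 to 8 and 384, 337, 368 and 318 in WT striatum replicates 5 to 8. The tissues did not overlap in WT. Its counts were 134, 122, 125 and 146 in KO cortex replicates 1 to 4 and 208, 204 and 301 in KO striatum replicates 2 to 4. The tissues did not overlap in KO either. The log2 difference was 1.08 in WT (SE 0.13, limma adjusted p = 9.7e-06), or 2.12-fold (95% interval 1.75 to 2.57). In KO it was 0.83 (SE 0.14, limma adjusted p = 0.00037), or 1.77-fold (1.44 to 2.18). With 130 to 338 reads per library Gamt was also the member with the largest counting error.

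Ckb (ENSMUSG00000001270, chromosome 12, 111669361 to 111672338, minus strand), the cytosolic kinase, had 28512, 27586, 27349 and 26634 normalized counts in WT cortex replicates 5 to 8. In WT striatum replicates 5 to 8 it had 41093, 31400, 35210 and 31328. The WT tissues did not overlap, and the highest value came from replicate 5, the WT library rich in choroid plexus transcripts. The log2 difference in WT was 0.33 (SE 0.093, limma adjusted p = 0.0089), or 1.26-fold (95% interval 1.09 to 1.44). It was 0.24 and still called without that library. In KO, cortex replicates 1 to 4 held 24864, 22812, 25214 and 25929 and striatum replicates 2 to 4 held 29062, 23618 and 28891. These groups overlapped, and the log2 difference of 0.13 (SE 0.10) was not called (limma adjusted p = 0.32, 95% interval -0.081 to 0.35).

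Slc6a8 (ENSMUSG00000019558, chromosome X, 73673150 to 73682502, plus strand), the sodium- and chloride-dependent creatine transporter, held nearly the same level in all groups. Its normalized counts were 2923, 3182, 3017 and 3334 in WT cortex replicates 5 to 8 and 2841, 2684, 2764 and 3158 in WT striatum replicates 5 to 8. In KO they were 3083, 3618, 2913 and 3022 in cortex replicates 1 to 4 and 3111, 2312 and 2984 in striatum replicates 2 to 4. All 4 groups overlapped. The log2 difference between striatum and cortex was -0.12 in WT (95% interval -0.32 to 0.076, limma adjusted p = 0.29) and -0.18 in KO (-0.39 to 0.035, limma adjusted p = 0.18).

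Ckmt1 (ENSMUSG00000000308, chromosome 2, 121357714 to 121363737, plus strand), the kinase of the mitochondrial intermembrane space, was likewise level. It had 4241, 4348, 4042 and 4000 normalized counts in WT cortex replicates 5 to 8 and 3530, 4044, 3688 and 4788 in WT striatum replicates 5 to 8. In KO it had 3942, 3634, 4306 and 4022 in cortex replicates 1 to 4 and 3511, 3447 and 4600 in striatum replicates 2 to 4. The groups overlapped throughout, and the 2 highest of the 15 values came from WT striatum replicate 8 and KO striatum replicate 4, the libraries low in striatal neuron markers. The log2 difference between tissues was -0.060 in WT (95% interval -0.28 to 0.16, limma adjusted p = 0.64) and -0.056 in KO (-0.29 to 0.18, limma adjusted p = 0.72). On the genome, 10 of its exonic bases overlap Strc on the opposite strand, a gene with a mean of 13 normalized counts, and no other member overlaps an annotated gene.

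**Figure D2:**
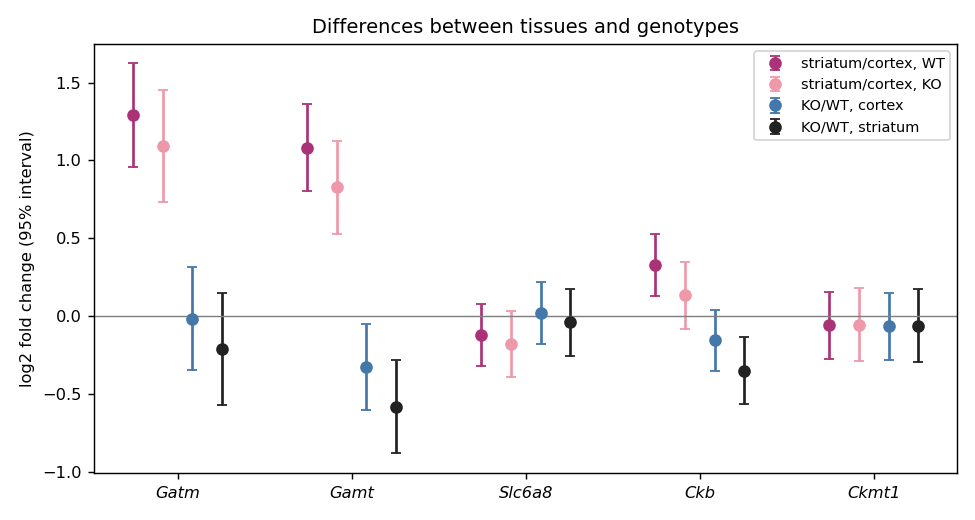
Log2 fold changes of the 5 genes (vertical axis) with 95% intervals from limma, for striatum against cortex in each genotype and for KO against WT in each tissue. The intervals of Gatm and Gamt lie above 0 in both tissue comparisons (WT 1.29 and 1.08, KO 1.09 and 0.83), and those of Slc6a8 and Ckmt1 include 0 in all 4 comparisons.

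The muscle forms of creatine kinase were nearly undetected, which sets the isoform pattern of these samples. Ckm, the cytosolic muscle kinase, had 0 to 5 reads per library and 11 in all 15 libraries, and Ckmt2, the sarcomeric mitochondrial kinase, had 0 to 4 reads and 15 in all. Neither passed the filter on low values, and no fold is given for them. Per kilobase, Ckb stood at 7.29 ± 0.210 times the level of Ckmt1 in WT cortex and 6.85 ± 0.280 times in KO cortex (SD, n = 4 each). In striatum this ratio was 9.77 ± 2.44 in WT (SD, n = 4) and 7.85 ± 1.13 in KO (SD, n = 3). Slc16a12, a transporter that lets creatine leave cells, was at 86.8 ± 12.9 normalized counts in WT cortex and 138 ± 101 in WT striatum (SD, n = 4 each). It was not called between tissues (limma adjusted p = 0.41 in WT), and its highest value lay in the choroid-rich WT striatum replicate 5, at 288.

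Oligodendrocytes, the myelin-forming cells, are a known site of creatine synthesis, and their markers differed between tissues in the same direction as Gatm and Gamt. All 12 oligodendrocyte markers were called higher in striatum in WT (median log2 difference 1.45) and in KO (1.20). Their summed level was 56822 to 120135 normalized counts in WT cortex, 79394 to 93958 in KO cortex, 218049 to 299437 in WT striatum and 150003 to 308656 in KO striatum, and no marker was at 0. Of 10 astrocyte markers 3 were called higher and 1 lower in WT, and 1 higher and 2 lower in KO. Microglia markers were called higher for 6 of 8 in WT and 3 of 8 in KO, and endothelial markers for 2 of 8 and 0 of 8. Beside these marker counts, the shares of all genes called higher were 24.9% in WT and 18.4% in KO. The shares called lower were 25.7% and 19.5%. General neuron markers were called lower in striatum for 5 of 8 in WT and 4 of 8 in KO. Choroid plexus markers were called higher for 4 of 10 in WT and 3 of 10 in KO, and markers of thalamus, septum and pallidum, which border the striatum, for 8 of 10 and 7 of 10. In tissue RNA, more cells of a type and more RNA per cell cannot be told apart.

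Within each tissue, the libraries with more oligodendrocyte transcript also had more Gatm. Across the 8 cortex libraries, Pearson's r between log2 Gatm and the mean log2 level of the 12 markers was 0.972 (two-sided exact permutation p = 0.00025, adjusted p = 0.011 over 90 relations). Spearman's rho was 0.929 (exact permutation p = 0.0022, adjusted p = 0.10). Across the 7 striatum libraries r was 0.995 (exact permutation p = 0.0002, the smallest that 7 libraries can give, adjusted p = 0.011). The order of the striatum libraries was the same in both measures, with a rho of 1 (exact permutation p = 0.0004, adjusted p = 0.036). Without the 2 libraries farthest from the median marker level, r was 0.895 over 6 cortex libraries and 0.973 over 5 striatum libraries. The permutations pooled WT and KO libraries and took no account of genotype. Within WT and within KO, with 3 or 4 libraries each, r was 0.999995 and 0.837 in cortex and 0.914 and 0.999953 in striatum. KO striatum replicate 3 had the lowest striatal sum of markers (150003) and the lowest striatal Gatm (4926), and KO striatum replicate 4 had the highest of both (308656 and 9303). In cortex, WT replicate 7 was lowest in both (56822 and 2415) and WT replicate 8 highest (120135 and 3511). The 90 relations paired the 5 members with 9 marker lists in 2 tissues, and these 2 were the only ones with an adjusted p for r under 0.05.

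For Gamt the relation to the same markers did not pass. Its r was 0.165 in cortex (exact permutation p = 0.71, adjusted p = 0.92, rho 0.405, exact permutation p = 0.33) and 0.705 in striatum (exact permutation p = 0.078, adjusted p = 0.39, rho 0.393, exact permutation p = 0.40). Without the 2 farthest libraries r was 0.827 over 6 cortex libraries and 0.733 over 5 striatum libraries. Within WT and within KO, r was 0.220 and 0.757 in cortex and -0.314 and 0.953 in striatum. KO striatum replicate 4 had the highest marker sum of the striatum and the highest Gatm, but a Gamt count of 301, below all 4 WT striatum libraries. Whether the relations of Gatm and Gamt to the markers differ was not tested.

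**Figure D3:**
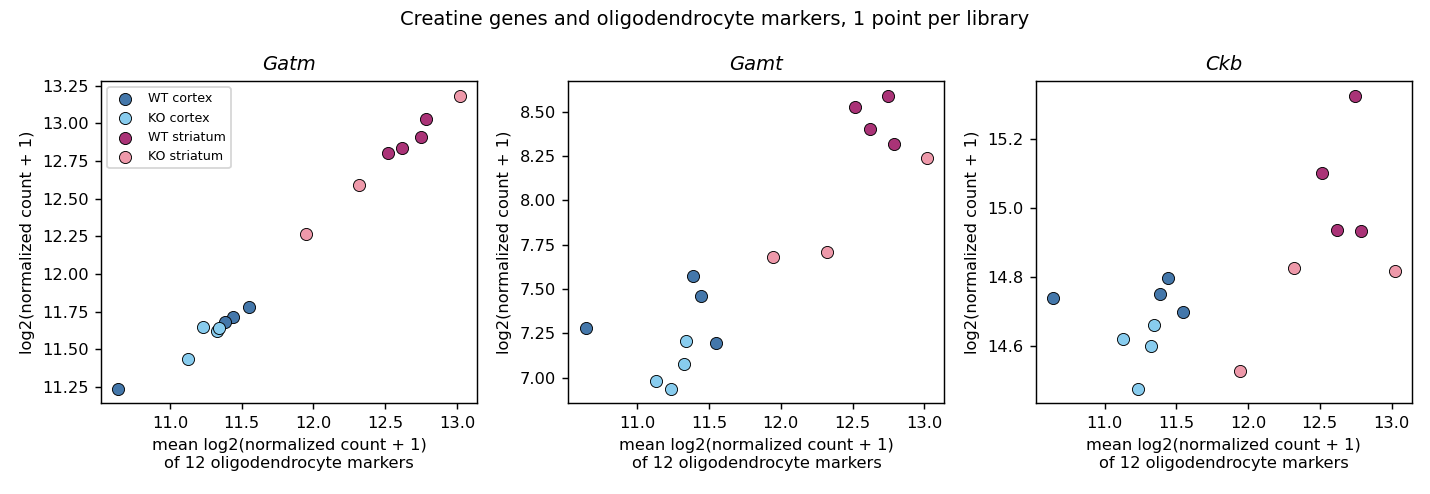
Log2(normalized count + 1) of Gatm, Gamt and Ckb (vertical axes) against the mean of that measure over 12 oligodendrocyte markers (horizontal axes), 1 point per library, coloured by tissue and genotype. Gatm rises with the markers within cortex (r = 0.972) and within striatum (r = 0.995), while the 3 KO striatum libraries lie below the 4 WT striatum libraries for Gamt and Ckb. Of all genes tested, 4.12% were lower without overlap in KO striatum.

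Between KO and WT mice none of the 5 members was called in either tissue, and Gamt and Ckb in striatum came nearest. In cortex limma called 0 of 5 members, where 0.00587% of all genes were called, and 1 member (Gamt) had an unadjusted limma p under 0.05, as did 427 of all 17030 genes (2.51%). edgeR, DESeq2 and voom also called 0, against 0.00587%, 0.0176% and 0.00587% of all genes. In striatum limma called 0 of 5, where 0.0763% of all genes were called, and Gamt and Ckb had an unadjusted limma p under 0.05, as did 2598 of all 17030 genes (15.3%). There edgeR and voom called 0 (0.0998% and 0.0176% of all genes), and DESeq2 called these 2, where it called 1.88% of all genes.

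Gamt had the largest log2 differences of the 5 between KO and WT, with lower means in KO in both tissues. In striatum its mean was 238 ± 54.5 normalized counts for the 3 KO libraries and 352 ± 29.9 for the 4 WT libraries (SD), and every KO library lay below every WT library. The log2 difference was -0.58 (SE 0.14, 95% interval -0.88 to -0.28) with a limma adjusted p of 0.14. Over all genes, 4.12% were lower in this way without overlap in striatum. Without KO striatum replicate 4, the library rich in choroid plexus and low in striatal neuron transcripts, the difference was -0.76 and was called (limma adjusted p = 0.013). It was also called without that library and WT replicate 5 (-0.72, limma adjusted p = 0.018) and without it and WT replicate 8 (-0.81, limma adjusted p = 0.0095). Those fits called 516, 341 and 861 of the 17030 genes, and the fit without all 3 libraries, in which Gamt was -0.77 (limma adjusted p = 0.023), called 258. Each of these fits left out KO replicate 4, whose Gamt count was the highest of KO striatum (301, against 208 and 204). That removal by itself widens the difference, so these calls are not independent of each other. WT replicate 8 held the lowest Gamt count of WT striatum (318) and WT replicate 5 the highest (384). The adjusted p lay between 0.0095 and 0.68 over the 28 alternatives and was under 0.05 in 5 of them. In cortex the mean was 132 ± 11 in KO and 166 ± 19.8 in WT (SD, n = 4 each), with KO replicate 4 (146) just above WT replicate 8 (145). The cortical log2 difference was -0.33 (SE 0.13, 95% interval -0.60 to -0.050, limma adjusted p = 0.9998).

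Ckb stood lower in every KO library than in every WT library of the same tissue. In cortex the means were 24705 ± 1338 in KO and 27520 ± 775 in WT (SD, n = 4 each), a log2 difference of -0.16 (SE 0.093, 95% interval -0.36 to 0.042, limma adjusted p = 0.9998). Over all genes, 2.28% were lower without overlap in cortex and 4.12% in striatum. The share lower without overlap in both tissues was not counted. In striatum the means were 27190 ± 3095 for the 3 KO libraries and 34758 ± 4597 for the 4 WT libraries (SD), a log2 difference of -0.35 (SE 0.10, 95% interval -0.57 to -0.14, limma adjusted p = 0.18). DESeq2 called the striatal difference (-0.35, adjusted p = 0.034). So did limma without KO replicate 4 and WT replicate 8 (-0.45, adjusted p = 0.038). WT replicate 8 held the lowest Ckb count of WT striatum (31328), and KO replicate 4 (28891) lay above the KO mean. Leaving out either by itself widens the difference. The choroid-rich WT replicate 5 held the highest count (41093) and KO replicate 3 the lowest of KO striatum (23618), and leaving out either narrows it. With each library left out in turn, the striatal log2 difference lay between -0.40 and -0.25. The adjusted p ranged from 0.034 to 0.68 over 28 alternatives and was under 0.05 in 2 of them.

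For the other 3 members the KO and WT libraries overlapped in both tissues. Gatm differed by -0.017 in cortex (95% interval -0.35 to 0.32) and by -0.21 in striatum (-0.57 to 0.15), with limma adjusted p = 0.9998 and 0.57. KO striatum held both the lowest and the highest striatal value of Gatm, at 4926 and 9303. Without KO replicate 3 the striatal difference was -0.0068, and without KO replicate 4 it was -0.47. Slc6a8 differed by 0.017 in cortex (-0.18 to 0.22) and -0.040 in striatum (-0.25 to 0.17), with limma adjusted p = 0.9998 and 0.89. Ckmt1 differed by -0.066 in cortex (-0.28 to 0.15) and -0.062 in striatum (-0.29 to 0.17), with limma adjusted p = 0.9998 and 0.83. For these 2 genes the interval bounds in both tissues ran from -18.5% to 16.1% of the WT level.

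Oligodendrocyte markers in striatum had log2 differences between KO and WT below 0 for 12 of 12 (median -0.25), none called. Striatal projection neuron markers were below 0 for 10 of 10 (median -0.83, none called), and cortical excitatory neuron markers above 0 for 9 of 10 (median 1.28, 1 called higher). Microglia markers were below 0 for 7 of 8 (median -0.19, none called), with sums of 13452 to 15311 normalized counts in WT and 11531 to 14051 in KO striatum. Their r with Ckb over the 7 striatum libraries was 0.667 (exact permutation p = 0.099, adjusted p = 0.40). It was -0.0014 over 5 libraries without the 2 farthest from the median marker level. Within WT it was -0.056, and within KO, with 3 libraries, 0.669. Ckb had an r of 0.610 with striatal projection neuron markers and -0.630 with cortical excitatory neuron markers (exact permutation adjusted p = 0.40 for each). Within WT and within KO these were 0.831 and -0.491 for the striatal list and -0.383 and 0.996 for the cortical list. For Gamt the pooled r was 0.397 and -0.696 (exact permutation adjusted p = 0.69 and 0.39). Within WT and within KO it was 0.969 and -0.9997 for the striatal list and -0.381 and 0.434 for the cortical list. Summed markers of thalamus, septum and pallidum were 13998 to 33022 in WT and 8456 to 52624 in KO striatum, highest in KO replicate 4 and WT replicate 8. The median over all genes tested was 0.0079. In cortex the oligodendrocyte markers were above 0 for 7 of 12 (median 0.013), the choroid plexus markers for 10 of 10 (median 1.20), and the striatal projection neuron markers below 0 for 10 of 10 (median -0.48), none called. The part of these markers in the values of Gamt and Ckb was not tested.

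Whether the effect of the knockout differed between tissues was tested directly. No member was called by limma (0 of 5, against 0.00587% of all genes, and 0 at an unadjusted limma p under 0.05, against 834 of all genes), and edgeR, DESeq2 and voom also called 0 (0.00587%, 0.0881% and 0.00587% of all genes). The difference of the log2 effects, striatum minus cortex, was -0.26 for Gamt (95% interval -0.66 to 0.15), -0.20 for Gatm (-0.69 to 0.29) and -0.19 for Ckb (-0.49 to 0.098). It was -0.057 for Slc6a8 (-0.35 to 0.24) and 0.0048 for Ckmt1 (-0.31 to 0.32).

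The genes around the pathway were given by 6 lists of 49 genes, of which 39 passed the filter on low values. Between tissues in WT, 15 of the 39 were called higher in striatum and 7 lower, and in KO 13 and 7. Of all genes tested, 24.9% were called higher and 25.7% lower in WT, and 18.4% and 19.5% in KO. The counts of each list are to be read against these shares, since calls between tissues are common. Among genes for the making, breakdown and transport of arginine and glycine, 5 of 10 were called higher in WT striatum and 0 lower. They were Arg2, a mitochondrial arginase (150 ± 45.2 normalized counts against 22.8 ± 6.72 in cortex), Slc6a9, the glycine transporter GLYT1 (2361 ± 351 against 987 ± 119), and Ass1, which makes the precursor of arginine (1424 ± 79.8 against 619 ± 39.9, SD, n = 4 each). Smaller rises were in Slc7a2, a cationic amino acid transporter (log2 difference 0.48), and Oat, ornithine aminotransferase (0.31). The limma adjusted p of these 5 lay between 7.3e-08 and 0.0022. In KO the called genes were Arg2, Slc6a9, Ass1 and Oat, and in place of Slc7a2 (limma adjusted p = 0.097) the transporter Slc7a3 (log2 difference 1.09, limma adjusted p = 0.023).

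The cycle that provides the methyl group for GAMT was called in both directions, with 3 of 10 higher and 3 lower in WT striatum. Higher were Ahcy, which clears S-adenosylhomocysteine (444 ± 8.45 against 278 ± 18.7), Mat2a, which makes S-adenosylmethionine (5967 ± 194 against 4480 ± 479), and Adk, adenosine kinase (1719 ± 42.6 against 1422 ± 78.8). Among the lower genes were Mat2b, the regulatory partner of MAT2A (2517 ± 309 against 3612 ± 212), and Bhmt2 (5.03 ± 5.19 against 11.5 ± 4.14, SD, n = 4 each). In KO, 2 were higher (Ahcy, Mat2a) and 3 lower, Mat2b and Bhmt2 among them.

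Adenylate kinases, a parallel route of phosphate transfer, were also split, and 2 were higher and 3 lower of 7 in striatum of either genotype. Ak5 (1634 ± 264 in WT striatum against 3946 ± 273 in WT cortex), Ak4 (655 ± 159 against 1184 ± 124) and Ak1 (1672 ± 124 against 2369 ± 39.6) were lower. Ak3 (3091 ± 259 against 2196 ± 210) and Ak7 (145 ± 58.8 against 26.3 ± 15.4, SD, n = 4 each) were higher. The carriers that pass ADP and ATP between mitochondria and cytosol were called higher in WT striatum for 4 of 5 members and lower for 0, by log2 differences of 0.48 for Slc25a5, 0.32 for Vdac1, 0.30 for Vdac3 and 0.17 for Vdac2. Of these, Slc25a5, Vdac1 and Vdac3 were also called in KO. Of 6 subunits of the sodium pump, a main consumer of ATP in neurons, 1 was called higher and 1 lower in striatum of either genotype. The higher one was Atp1b3 (3414 ± 513 in WT striatum against 2338 ± 97.1 in WT cortex, SD, n = 4 each), which was also called in KO.

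**Figure D4:**
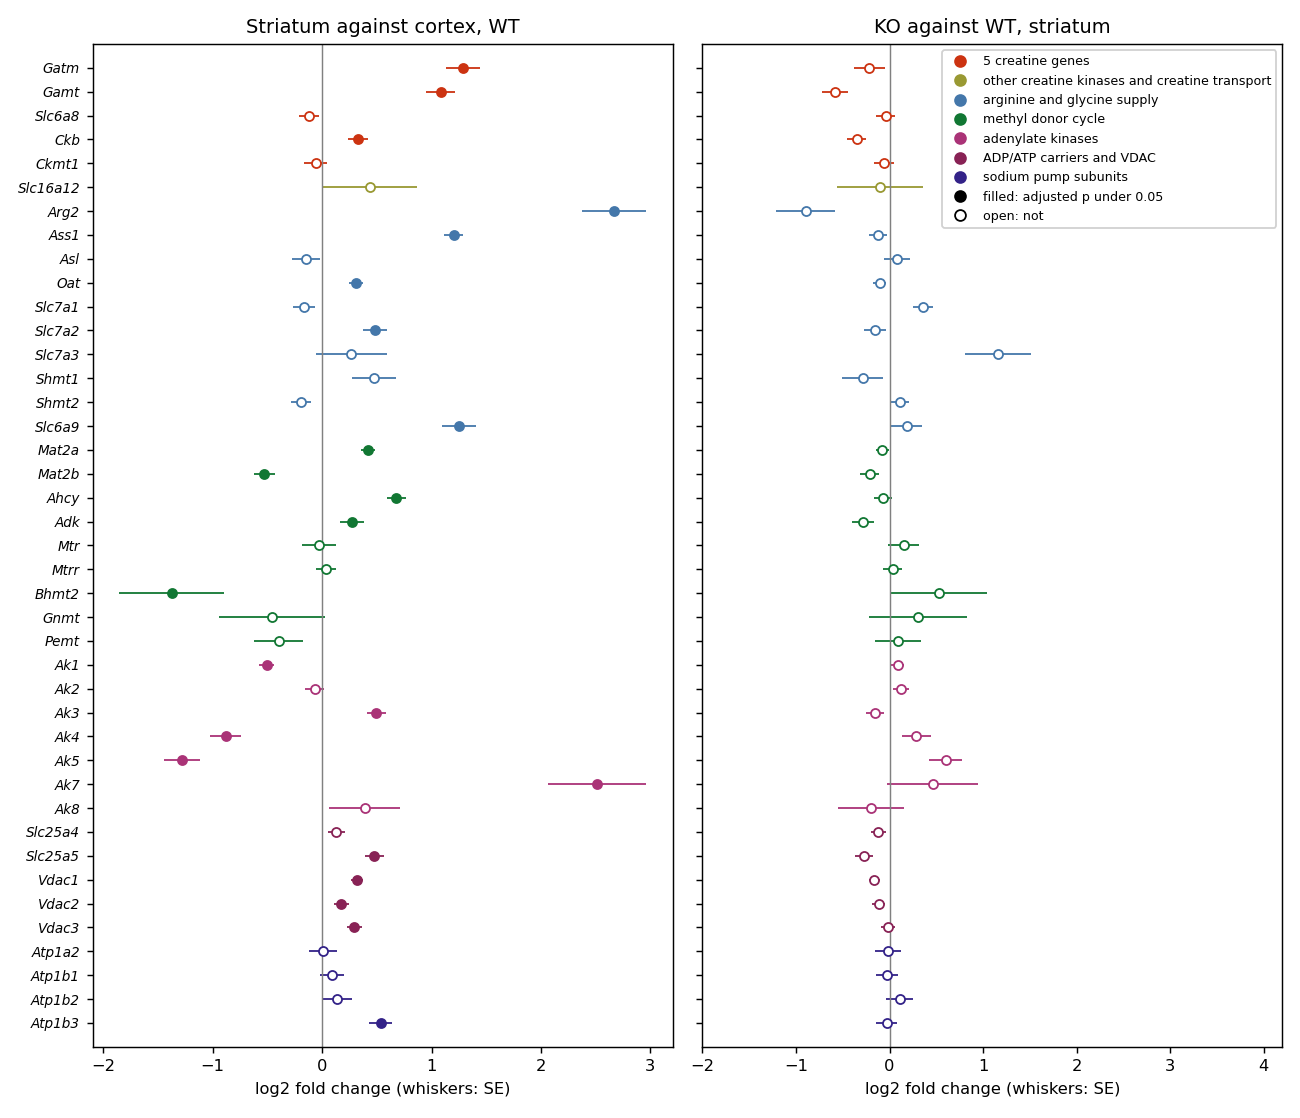
Log2 fold changes with SE (horizontal axes) of the 5 creatine genes and 36 genes of the surrounding pathway lists, for striatum against cortex in WT (left) and KO against WT in striatum (right); filled points passed limma's adjusted p of 0.05. Of the 36 pathway genes plotted 15 were higher and 5 lower on the left, and 0 were called on the right. Of all genes tested, 24.9% were higher and 25.7% lower on the left, and 0.0763% were called on the right.

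Between KO and WT no gene of these lists was called by limma in either tissue, with 1 of 39 in cortex and 7 of 39 in striatum at an unadjusted limma p under 0.05, near the shares of 2.51% and 15.3% over all genes. Genes with the smallest p in each list are given as values. In striatum Slc7a1 and Slc7a3, which import arginine, stood at 1404 ± 127 in KO against 1101 ± 159 in WT and at 401 ± 85.9 against 201 ± 100 (SD, n = 3 and 4). Ak5 stood at 2544 ± 848 against 1634 ± 264, Ak4 at 784 ± 73.4 against 655 ± 159 and Adk at 1441 ± 368 against 1719 ± 42.6. Slc25a5 stood at 4633 ± 745 against 5552 ± 484, Vdac1 at 11577 ± 830 against 12928 ± 569 and Atp1b2 at 16026 ± 3943 against 14748 ± 2417. The limma adjusted p of these 8 lay between 0.18 and 0.77. Arg2, which falls outside this rule and was picked after its values were seen, stood at 79.3 ± 21.9 against 150 ± 45.2 (limma adjusted p = 0.22).

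In cortex the values with the smallest p were those of Ak7 (54.5 ± 12.1 in KO against 26.3 ± 15.4 in WT), Ak8 (40.6 ± 10.04 against 30.9 ± 11.1), Mtr, methionine synthase (370 ± 58.7 against 299 ± 41.4), and Bhmt2 (18.6 ± 1.56 against 11.5 ± 4.14). Slc7a1 stood at 1374 ± 125 against 1227 ± 75.8, Oat at 1970 ± 97.6 against 2075 ± 158, Vdac2 at 3895 ± 57.7 against 4057 ± 67.0, Slc25a5 at 3784 ± 258 against 3984 ± 166 and Atp1b3 at 2432 ± 172 against 2338 ± 97.1 (SD, n = 4 each). All had a limma adjusted p of 0.9998. Slc16a12 stood at 96.9 ± 23.05 against 86.8 ± 12.9 in cortex and, with n = 3 in KO, at 131 ± 101 against 138 ± 101 in striatum.

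Among 11721 other named genes with a mean of at least 100 normalized counts, those most like each member were found by Pearson's r of the log2 counts over the 15 libraries, which share their tissue and genotype groups. For Gatm they were Evi2a (0.996), Plekhb1 (0.995) and Il33 (0.995). For Gamt they were Suclg1, a subunit of succinyl-CoA ligase (0.979), Phgdh, the entry enzyme of serine synthesis (0.978), and Tmem242 (0.977). Phgdh had mean normalized counts of 1210 in WT cortex, 1034 in KO cortex, 1952 in WT striatum and 1514 in KO striatum, the same order of groups as Gamt. For Ckb they were Ndufs3 (0.959) and Ndufa1 (0.955), subunits of respiratory complex I, and Rgs4, a regulator of G protein signalling (0.953). For Slc6a8 they were Cdc42se1 (0.959), Stk40 (0.893) and Fam43b (0.858). For Ckmt1 they were Auh (0.910), Cend1 (0.884) and Ina, a neuronal intermediate filament protein (0.879). Among the members themselves, Gatm and Gamt had an r of 0.912 over the 15 libraries, and both were higher in striatum. Gamt and Ckb had one of 0.851, Gatm and Ckb 0.673, and Slc6a8 and Ckmt1 0.265. The lowest was -0.430, for Gamt and Slc6a8. In deviations from the group means, r was 0.595 for Gatm and Gamt, 0.587 for Gamt and Ckb and 0.296 for Gatm and Ckb.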

How the data were processed

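RNA of 15 tissue samples was sequenced. The submitters' processing notes name GRCm38, TopHat2 2.1.1, HTSeq 0.6.0, cutadapt 1.1, DESeq2 1.12.4 and FastQC 0.11.5, without saying how each was used. The strand setting and annotation release are not given in the sources used here. The authors deposited 1 normalized signal value per gene and library, a read count divided by 1 factor per library. Multiplied back by that factor, found from the steps between low values, all values (100%) lay within 0.001 of a whole number, so reads were recovered.

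The test was limma 3.58.1 in R 4.3.3, run on log2(normalized count + 1), with a variance trend and 1 mean for each of 4 groups (11 residual degrees of freedom), over 17030 of 26595 genes with at least 10 normalized counts in 3 libraries. Fold changes are on this scale, which understates those of low genes. A gene was called at a Benjamini-Hochberg adjusted p under 0.05. edgeR 4.0.16, DESeq2 1.42.0 and voom on recovered reads, other filters, pseudocounts and scalings, single tissues or genotypes, weights, a replicate block and left-out libraries were alternatives. The fit was run on simulated counts drawn independently for each gene and library. They lacked the uneven marker content of the striatum libraries, so that check does not cover it. Marker relations used two-sided exact permutation tests.

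All 5 members were named, together with the called genes of each pathway list, or the 2 with the smallest p where none was called, and the 3 genes most alike in pattern. Values of 3 genes of the pathway lists are not reported here. The members and lists were chosen with earlier results of these data known. Annotation came from GENCODE M21 and upstream sequences from RefSeq, both on GRCm38. Python 3.11.15 with matplotlib 3.10.9 made the plots.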

Additional observations from a re-analysis of the deposited data

Results flagged for a closer look

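In KO cortex the Gatm count of replicate 3 (2770 normalized counts) lay apart from the other 3 libraries, which held 3154, 3191 and 3212. It was the 1 such case by Dixon's test at 95% among 15 groups of 4 libraries, where chance gives about 1 in 20. That library also had the lowest summed oligodendrocyte markers of KO cortex, at 79394 normalized counts against 92803 to 93958 in the others.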

How the results depend on the processing

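Over 29 alternatives the 5 comparisons gave 710 values for single members, of which 675 kept their direction and their side of the threshold, 8 passed the threshold newly, 0 lost it and 27 changed sign. In KO against WT striatum the number of called members was 0, but 2 with DESeq2, 1 without the choroid-rich libraries, 2 without those low in striatal markers, 1 without all 3 of these libraries (an alternative chosen after seeing the data) and 0 to 1 with each library left out. The counts of the other comparisons stayed within 1.5 times. The values that changed sign were at most 0.19 in size, with an adjusted p of at least 0.65. With array weights, Slc6a8 was 0.018 in KO against WT striatum and 0.0073 in the difference of effects, and Ckmt1 was -0.081 in the latter. There Ckmt1 was -0.19 without the choroid-rich libraries, -0.041 without those low in striatal markers and -0.085 without all 3. With each library left out, KO against WT cortex ranged from -0.14 to 0.041 for Gatm and from -0.050 to 0.055 for Slc6a8, and KO against WT striatum from -0.12 to 0.093 for Slc6a8 and from -0.20 to 0.027 for Ckmt1. The difference of effects ranged from -0.45 to 0.010 for Gatm, from -0.14 to 0.076 for Slc6a8 and from -0.13 to 0.093 for Ckmt1, and striatum against cortex in KO from -0.19 to 0.018 for Ckmt1. Ckmt1 was called lower there without all 3 uneven libraries (-0.19, adjusted p = 0.040).

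Replicate numbers are shared between tissues but not between genotypes, and nothing says that a number marks an animal. Same-numbered libraries had correlations of -0.00046 to 0.24 in their deviations, above 0.1 in 5 of 7 pairs, and 6 of 7 striatum libraries correlated best with the cortex library of their number. With the replicate block the counts of called members were 3 in WT and 2 in KO between tissues and 0 for the difference of effects, as without it. Groups of 3 or 4 libraries limit what KO against WT can show.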
